A study of Mus musculus and Homo sapiens with 34 samples.

Results

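Retinoid uptake and metabolism were followed through 9 genes: Stra6, Rdh10, Dhrs3, Lrat, Aldh1a1, Aldh1a3, Crabp2, Rarb and Rarg, with the same symbols in capitals in human cells. They were found by symbol among the 48431 gene identifiers that the 7 count tables list between them. All 9 were listed in the 3 human tables. Lrat was not listed in any of the 4 mouse tables, and Crabp2 was not listed in the mouse 3311 table. The genes were grouped with earlier results of the same libraries known, among them the rise of Stra6 after Hnf4a deletion. Their changes against the matching vehicle are therefore given as a description, without p values for single genes.

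RNA was sequenced from 34 libraries in 17 groups of 2 replicates, 22 from mouse and 12 from human lung adenocarcinoma cultures, with poly(A) selection and strand-specific library preparation. The 3 mouse cultures carried p53frt and Rosa-FSF-CreERT2 among their alleles, the last being a Cre recombinase that 4-hydroxytamoxifen (4OHT) activates. Culture 3154 also carried Hnf4aflox. It was grown as organoids and sampled 2 weeks after 2 days of ethanol or 4OHT (2 mM per the labels), or at 48 hours after ethanol or 4OHT combined with vehicle or 3 nM of the small-molecule inhibitor MRTX1133. Cultures 1027B and 3311 carried Foxa1flox and Foxa2flox, and no 4OHT treatment is named for the libraries used here. Organoids of 1027B received vehicle, 10 nM trametinib (a MEK inhibitor) or 20 nM MRTX1133 for 48 hours, and 3311 cells in serum-containing medium received vehicle or 50 nM trametinib for 48 hours. For the established human lines H358 and H1651, 20 nM trametinib was set against vehicle at 48 hours. An H1651 line with a lentiviral, doxycycline-inducible HNF4A construct was grown for 7 days without or with 1 µg/mL doxycycline. No 4OHT-treated culture without Hnf4aflox, and no doxycycline-treated line without the construct, is among the libraries. Effects of 4OHT, active Cre or doxycycline can therefore not be told apart from those of Hnf4a. Each culture is a single line, and nothing in the labels says that replicates were separate cultures, so the p values measure the spread between these libraries, which may be technical.

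Retinol, or vitamin A, circulates bound to RBP4 and transthyretin and enters many cells through the membrane receptor STRA6. Inside the cell it is stored as esters by LRAT, or oxidised to retinaldehyde by RDH10, a step that DHRS3 reverses. ALDH1A1 and ALDH1A3 oxidise retinaldehyde to retinoic acid, CRABP2 carries the acid to the nucleus, and RARB and RARG are nuclear receptors that it activates. In the lung, retinoic acid takes part in branching of the embryonic airways and in the formation of alveoli. RARB is itself a classical retinoic acid target through a direct-repeat element in its promoter.

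That element is shown because Rarb had the largest relative change of these genes under trametinib in 3311. The mouse Rarb promoter below is from RefSeq (GRCm38.p6, chr14:16575427-16575726, minus strand, 300 bases, written 5′ to 3′), from 250 bases before to 50 bases after the transcription start. Capitals mark a match to a direct repeat with a 5-base spacer (DR5).
Rarb promoter: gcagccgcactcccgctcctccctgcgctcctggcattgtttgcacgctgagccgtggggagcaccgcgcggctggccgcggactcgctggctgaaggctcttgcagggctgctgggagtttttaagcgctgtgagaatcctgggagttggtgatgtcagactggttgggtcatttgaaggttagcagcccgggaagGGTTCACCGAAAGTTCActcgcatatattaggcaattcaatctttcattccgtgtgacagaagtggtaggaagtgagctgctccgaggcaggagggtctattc

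The match lay 53 to 37 bases before the start (-53 to -37). The repeat unit searched, on both strands, was AGGTCA, with G also allowed for its leading A and T also allowed for its last G. It found a DR5 in 32 of 32851 mouse promoters of the same length, or 0.0974%. Promoter sequences were at hand for 6 of the 9 genes, with 13 promoters in all, and the Rarb promoter was the only 1 of these 13 with a DR5. The same repeat with a 2-base spacer (DR2; 0.268% of promoters) and the HNF4-type motifs CAAAGTCCA (0.475%) and CAAAGTTCA (0.39%) were in none of the 13. The AP-1 motif TGACTCA, present in 5.2% of promoters, was in 1 of the 13, an Aldh1a1 promoter, at -57 to -51. A match is a string of letters in this window and says nothing about binding.

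Total counts ran from 19692517 to 45284286 per library. Levels are given as CPM, the counts of a gene scaled to a common library size with TMM factors, each pair of values being replicates 1 and 2, and each table was scaled on its own. A gene is termed called, and said to have risen or fallen, when its Benjamini-Hochberg adjusted p in edgeR's quasi-likelihood test over all genes of the table was below 0.05. Keratins and other epithelial markers summed to 4073 to 11416 CPM, with at least 5 of 6 listed genes above 1 CPM in every library. Lung alveolar markers summed to 800 to 17118 CPM in mouse libraries and 64.4 to 203 CPM in human ones. Fibroblast markers summed to at most 0.886 CPM in 3154 and 1.69 CPM in 1027B, where at most 3 of 8 listed markers were in the tables, and to 19.3 to 35.6 CPM in 3311, 41.2 to 349 CPM in H358 and 414 to 759 CPM in H1651. As these are bulk libraries, fewer cells of a type and less RNA per cell cannot be told apart.

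Hnf4a served to check the labels. In 3154 it stood at 315 and 427 CPM after ethanol and 53.5 and 68.0 CPM after 4OHT at 2 weeks. At 48 hours it was 221 and 230 CPM in ethanol with vehicle and 49.4 and 50.4 CPM in 4OHT with vehicle. With MRTX1133 it was 180 and 184 CPM after ethanol and 25.3 and 29.8 CPM after 4OHT. HNF4A rose from 47.1 and 35.9 CPM to 94.4 and 96.8 CPM with doxycycline in H1651, and it had 0 counts in all 4 H358 libraries. The labels were thus met in every group in which Hnf4a had been manipulated.

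Stra6, the retinol receptor, went from near absence to clear expression when Hnf4a was deleted, at both times. After 2 weeks it was 0.791 and 0 CPM (24 and 0 counts) with ethanol and 76.0 and 21.5 CPM (2314 and 573 counts) with 4OHT. The groups did not overlap, but the 4OHT replicates lay far apart. The fitted log2 change was 6.78 ± 1.08 (SE), and without 4OHT replicate 1 it was 5.63 and no longer called. At 2 weeks Stra6 passed the count filter through the 4OHT libraries, so nothing is read from its call. Without ethanol replicate 1 the remaining control had 0 counts and the fitted value was 13.34, so the fold has no upper limit here. At 48 hours Stra6 was 0.715 and 1.13 CPM after ethanol and 21.0 and 23.0 CPM after 4OHT in vehicle, a log2 change of 4.57 ± 0.23. Under MRTX1133 the same comparison ran from 1.15 and 1.33 CPM to 17.5 and 18.3 CPM, a log2 change of 3.85 ± 0.22. All 4 libraries with Hnf4a intact were below all 4 with Hnf4a deleted.

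**Figure D1:**
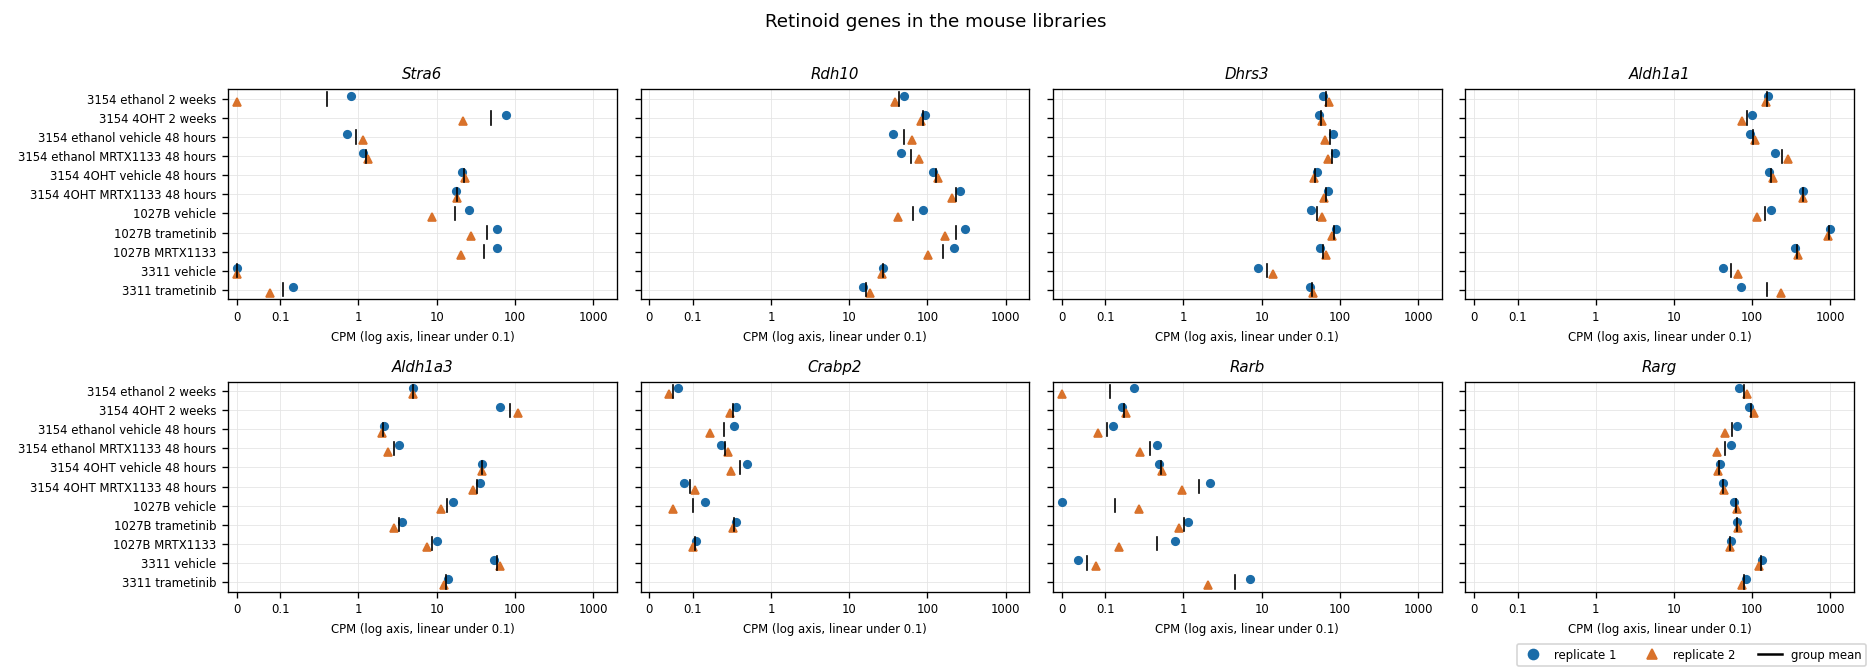
Level of 8 retinoid genes in 22 mouse libraries (x axis, CPM, logarithmic and linear below 0.1; y axis, group). Circles are replicate 1, triangles replicate 2 and bars the mean of both. Within 3154, Stra6 and Aldh1a3 lie left with ethanol and right with 4OHT, whereas Crabp2 stays below 0.5 CPM in all libraries that list it.

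Outside 3154 Stra6 was readily detected in 1027B, H358 and H1651 but not in 3311. In 1027B, where Hnf4a had not been deleted, Stra6 was 25.7 and 8.61 CPM in vehicle, 59.3 and 27.3 CPM with trametinib, and 59.6 and 20.3 CPM with MRTX1133. Replicate 1 was the higher in each of these groups. Within a replicate number the fold over vehicle was 2.31 and 3.17 for trametinib and 2.32 and 2.36 for MRTX1133. Neither change was called in the unpaired fit (log2 change 1.33 ± 0.67 and 1.22 ± 0.67), and both were called with the replicate number as a block (1.42 and 1.22). Hnf4a itself fell in 1027B, from 446 and 471 CPM in vehicle to 254 and 200 CPM with trametinib (-1.01 ± 0.15) and 298 and 242 CPM with MRTX1133 (-0.76 ± 0.15), and its part in the 1027B values was not tested. In 3311 Stra6 had 0 and 0 counts in vehicle and 4 and 2 counts with trametinib, too few to test. In H358 STRA6 was 64.2 and 47.9 CPM in vehicle and 99.2 and 56.9 CPM with trametinib, with overlapping groups and no call. In H1651 it was 4.42 and 8.22 CPM in vehicle and 2.28 and 4.10 CPM with trametinib, and doxycycline left 13.6 and 18.1 CPM against 16.0 and 21.2 CPM without it. These human changes were not called in the unpaired fit. With the replicate block STRA6 was called with trametinib in H1651 (-0.98) and in H358 (0.44). With single libraries left out, STRA6 was called in H358 without trametinib replicate 2 (0.82) and in H1651 without vehicle replicate 1 of the trametinib experiment (-1.37).

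Over the 22 mouse libraries, the genes whose level followed Stra6 most closely were Cpne2 (Pearson r = 0.933), Csf1 (r = 0.932), Serinc2 (r = 0.924), Map4k4 (r = 0.923) and Plekhm3 (r = 0.920). The measure was log2(CPM + 1) minus the mean of each table, over 10943 genes with at least 10 CPM in some library, and it is a description without a p value. All 5 share with Stra6 the libraries and the split of 3154 by 4OHT. In the 2-week libraries mean Csf1, which encodes a macrophage growth factor, was 0.295 CPM with ethanol and 6.17 CPM with 4OHT, and mean Serinc2 was 3.44 and 31.1 CPM.

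Storage and the reverse step were represented by LRAT and Dhrs3. LRAT, which esterifies retinol, was measured in human cells only. It was 10.9 and 9.46 CPM in H358 with vehicle and 5.67 and 7.89 CPM with trametinib, a fall of the log2 level of -0.60 ± 0.20. The call was lost without H358 vehicle replicate 1 (-0.53) or trametinib replicate 1 (-0.36), and with upper-quartile scaling factors (-0.55). In all 8 H1651 libraries LRAT lay below 1 CPM.

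Dhrs3, which reduces retinaldehyde back to retinol and is itself a retinoic acid target, rose with trametinib in 3 cultures. In 3311 it was 8.99 and 14.2 CPM in vehicle and 41.9 and 45.3 CPM with trametinib, a log2 change of 1.91 ± 0.24. In 1027B it was 42.8 and 58.8 CPM in vehicle and 89.0 and 78.5 CPM with trametinib (0.72 ± 0.18), a call that was lost without vehicle replicate 1 (0.51) or either trametinib library (0.63 and 0.81). MRTX1133 gave 55.5 and 67.5 CPM, overlapping the vehicle. In H358 DHRS3 was 91.1 and 85.2 CPM in vehicle and 120 and 113 CPM with trametinib (0.40 ± 0.10), a call lost without either vehicle library (0.42 and 0.34). In H1651 it was 62.6 and 37.9 CPM in vehicle and 54.1 and 40.1 CPM with trametinib, without a call. After Hnf4a deletion at 48 hours Dhrs3 fell from 82.9 and 65.6 CPM to 50.7 and 46.8 CPM in vehicle (-0.61 ± 0.16), a call lost without ethanol replicate 1 (-0.44) or either 4OHT library (-0.67 and -0.55), and when only these 2 groups were fitted (-0.61). It was not called under MRTX1133 (86.2 and 71.7 against 71.3 and 62.9 CPM) or at 2 weeks (61.1 and 71.9 against 54.8 and 58.7 CPM).

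Rdh10, which makes retinaldehyde from retinol, rose after Hnf4a deletion in all 3 settings. It was 49.7 and 38.3 CPM with ethanol and 93.1 and 82.5 CPM with 4OHT at 2 weeks, a log2 change of 1.00 ± 0.17. At 48 hours it was 36.8 and 64.2 CPM with ethanol and 116 and 138 CPM with 4OHT in vehicle (1.33 ± 0.31). Under MRTX1133 it was 46.4 and 77.7 CPM with ethanol and 259 and 205 CPM with 4OHT (1.90 ± 0.32). The groups were apart in each setting. The 2-week call was lost without either 4OHT library (0.90 and 1.08), and so was the 48-hour call in vehicle (1.45 and 1.20).

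The response of Rdh10 to inhibitors had opposite directions in the 2 other mouse cultures. In 1027B it was 87.9 and 42.3 CPM in vehicle, 301 and 169 CPM with trametinib and 216 and 102 CPM with MRTX1133. Within a replicate number the fold was 3.43 and 4.00 for trametinib and 2.46 and 2.41 for MRTX1133. The trametinib change was called (1.85 ± 0.48), though not without vehicle replicate 2 (1.45) or trametinib replicate 1 (1.38), and the MRTX1133 change was called only with the block (1.28). In 3311 Rdh10 fell from 27.4 and 26.0 CPM to 15.1 and 18.3 CPM with trametinib (-0.68 ± 0.18), a call lost without vehicle replicate 1 (-0.65) or trametinib replicate 1 (-0.55). RDH10 rose in H358 from 13.2 and 11.1 CPM to 17.2 and 17.0 CPM (0.49 ± 0.15), a call lost without either vehicle library (0.59 and 0.35). With doxycycline in H1651 it fell from 257 and 274 CPM to 200 and 203 CPM (-0.40 ± 0.07), a call lost when any of the 4 libraries was left out (-0.45 to -0.35), with RLE scaling factors (-0.40), and when a gene needed 10 counts in each library (-0.40).

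Aldh1a1, an enzyme that makes retinoic acid and is widely used as a marker of progenitor-like tumour cells, had higher values with trametinib or MRTX1133 than with vehicle in every mouse culture, without overlap. In 1027B it was 173 and 115 CPM in vehicle, 982 and 917 CPM with trametinib and 356 and 387 CPM with MRTX1133. All 3 groups were apart, with log2 changes of 2.73 ± 0.20 and 1.37 ± 0.19, both called. The MRTX1133 call was lost without either MRTX1133 library (1.43 and 1.32). In 3154 with Hnf4a intact Aldh1a1 was 93.6 and 110 CPM in vehicle and 194 and 282 CPM with MRTX1133, a log2 difference of 1.23 ± 0.19 that was not called. It was called by DESeq2 (1.20), without a count filter (1.23) and without ethanol vehicle replicate 2 (1.35). After deletion it rose from 163 and 186 CPM to 446 and 446 CPM (1.36 ± 0.19), a call lost when any 1 of these 4 libraries was left out (1.26 to 1.46). In 3311 it was 42.0 and 65.8 CPM in vehicle and 72.9 and 237 CPM with trametinib, with 1 trametinib library just above the vehicle. That change of 1.52 ± 0.50 was called, but it was 0.43 and uncalled without trametinib replicate 2, and it was also lost without vehicle replicate 1 (1.23) or vehicle replicate 2 (1.88) and by DESeq2 (1.51).

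The human lines held opposite ends of the ALDH1A1 range. In H358 ALDH1A1 had 0 and 1 counts in vehicle and 32 and 11 counts with trametinib, a ratio of 43.1 with a 95% counting interval of 7.33 to 1740. The treated level was still only 0.688 and 0.432 CPM. In H1651 it was 964 and 768 CPM in vehicle and 1110 and 960 CPM with trametinib, overlapping and called only with the replicate block (0.26). With doxycycline ALDH1A1 rose from 505 and 514 CPM to 733 and 782 CPM (0.57 ± 0.07).

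Hnf4a deletion changed Aldh1a1 in different directions at the 2 times. It fell from 159 and 150 CPM to 98.2 and 75.1 CPM at 2 weeks (-0.84 ± 0.16), a call lost without either 4OHT library (-1.05 and -0.65). At 48 hours it rose in vehicle (0.78 ± 0.19) and under MRTX1133 (0.90 ± 0.19), from the levels given above, and those calls were lost without either 4OHT library of the comparison (0.67 to 0.90), and in vehicle also without ethanol replicate 1 (0.66). The difference between the 2 times was -1.60 ± 0.24 (95% interval -2.16 to -1.05; edgeR adjusted p = 0.0560), in a comparison chosen after the values had been seen, in which 0 of 7 retinoid genes and 0.0734% of 14984 genes were called. It was called by DESeq2, with a replicate block, and without 48-hour ethanol replicate 2 (-1.72). Time, treatment schedule and sequencing experiment cannot be told apart in it. Reads of Aldh1a1 and its close paralog Aldh1a7, a neighbour on chromosome 19, may have been split unevenly. Aldh1a7 also fell at 2 weeks, from 166 and 170 CPM to 90.5 and 63.5 CPM, and at 48 hours was 80.1 and 82.9 CPM with ethanol and 80.4 and 81.3 CPM with 4OHT.

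Aldh1a3, the other retinoic acid-forming enzyme measured, followed Stra6 in 3154. It was 4.95 and 4.94 CPM with ethanol and 63.9 and 111 CPM with 4OHT at 2 weeks, a log2 change of 4.14 ± 0.31. At 48 hours it was 2.15 and 2.01 CPM with ethanol and 37.5 and 37.5 CPM with 4OHT in vehicle (4.17 ± 0.21). Under MRTX1133 it was 3.25 and 2.37 CPM with ethanol and 35.6 and 29.0 CPM with 4OHT (3.52 ± 0.20). Within each experiment no ethanol library reached the level of any 4OHT library.

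Aldh1a3 fell with trametinib in both mouse cultures, and ALDH1A3 rose in 1 of the 2 human lines. It fell in 3311 from 53.4 and 63.7 CPM to 14.1 and 12.5 CPM (-2.14 ± 0.17) and in 1027B from 16.2 and 11.2 CPM to 3.65 and 2.84 CPM (-2.07 ± 0.28). MRTX1133 left 10.2 and 7.43 CPM in 1027B, a log2 difference of -0.63 ± 0.27 that was called only with the replicate block. In H358 ALDH1A3 rose from 142 and 155 CPM to 388 and 309 CPM (1.23 ± 0.13). In H1651 it was 3.54 and 6.10 CPM in vehicle and 3.34 and 5.95 CPM with trametinib, and 1.15 and 1.07 CPM without and 1.45 and 1.41 CPM with doxycycline, none of it called. The difference between H358 and the mouse cultures was not tested.

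**Figure D2:**
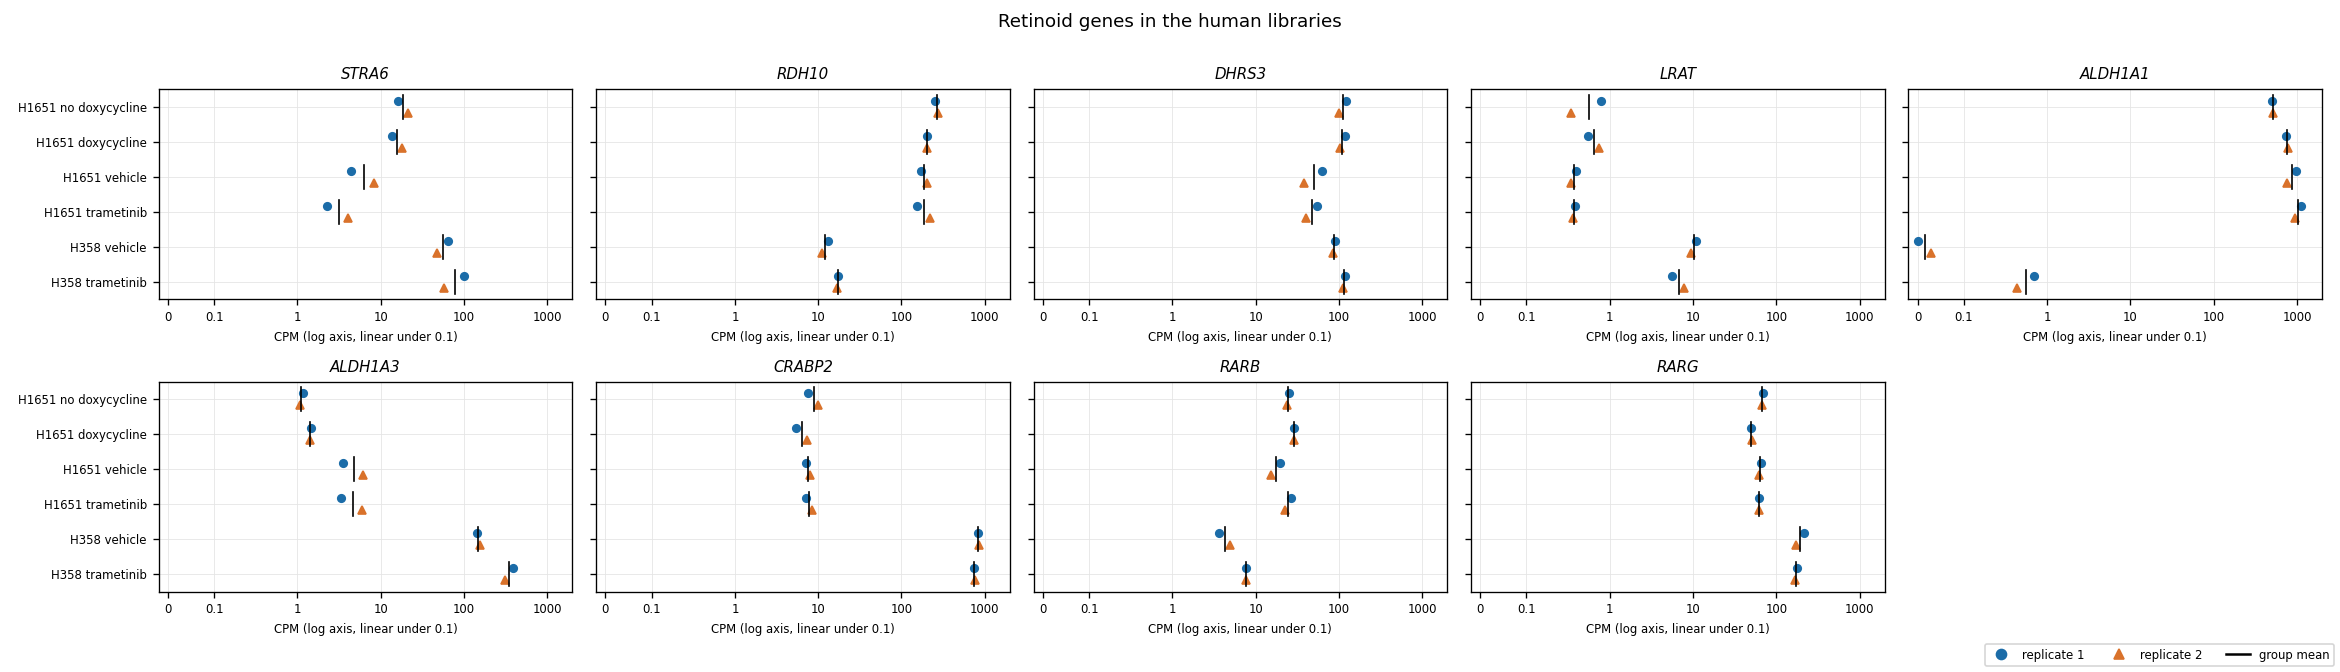
Level of the 9 retinoid genes in 12 human libraries (x axis, CPM, logarithmic and linear below 0.1; y axis, group). Circles are replicate 1, triangles replicate 2 and bars the mean of both. H358 lies right of H1651 for CRABP2 and ALDH1A3 and left of it, near 0, for ALDH1A1, without overlap.

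Crabp2, the carrier of retinoic acid to its receptors, was highest in H358. There CRABP2 was 826 and 850 CPM in H358 with vehicle and 754 and 756 CPM with trametinib, without a call. In H1651 it lay between 5.38 and 10.1 CPM in all 8 libraries. In mouse libraries Crabp2 never exceeded 0.493 CPM. At 2 weeks it had 2 and 1 counts with ethanol and 11 and 8 counts with 4OHT, a ratio of 5.83 with a 95% counting interval of 1.72 to 30.8.

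Rarb, the receptor with the DR5 in its promoter, was low in mouse cells, at most 2.17 CPM outside 3311 with trametinib. In 3311 it had 1 and 2 counts in vehicle and 196 and 54 counts with trametinib, or 0.0372 and 0.0797 CPM against 7.03 and 2.05 CPM. The ratio was 80.0 with a 95% counting interval of 27.1 to 391. In 1027B Rarb was 0 and 0.271 CPM in vehicle, 1.16 and 0.886 CPM with trametinib and 0.780 and 0.150 CPM with MRTX1133. The trametinib difference (2.93 ± 1.12) was called only with the block. In 3154 at 48 hours it was 0.126 and 0.0839 CPM with ethanol and vehicle, 0.459 and 0.281 CPM with ethanol and MRTX1133, 0.493 and 0.536 CPM with 4OHT and vehicle, and 2.17 and 0.958 CPM with both 4OHT and MRTX1133. The ethanol libraries with vehicle held 3 and 2 counts of Rarb, so it passed the count filter through the groups in which it was higher, and nothing is read from its calls with deletion. The fitted values were 2.24 ± 0.72 in vehicle and 2.05 ± 0.49 under MRTX1133. The vehicle call was lost when any 1 of its 4 libraries was left out (1.98 to 2.54), and the MRTX1133 call without either ethanol library (2.45 and 1.74) or 4OHT replicate 1 (1.35). In the annotation 38.4% of the exon bases of Rarb lie opposite exons of Top2b and Gm48162, and whether counting used strand is not given in the sources used here.

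RARB was readily detected in human cells. In H358 it rose from 3.60 and 4.96 CPM to 7.63 and 7.69 CPM with trametinib (0.84 ± 0.21), a call lost without vehicle replicate 1 (0.59). In H1651 it was 19.7 and 15.2 CPM in vehicle and 26.6 and 22.6 CPM with trametinib, apart but called only with the replicate block (0.50). Doxycycline gave 29.0 and 28.6 CPM against 25.2 and 24.2 CPM, also called only with the block (0.22).

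Rarg was the other receptor, at a higher level than Rarb in every mouse group. It fell with trametinib in 3311, from 134 and 124 CPM to 83.5 and 74.8 CPM (-0.70 ± 0.14), and RARG fell with doxycycline in H1651, from 69.3 and 66.5 CPM to 49.2 and 51.2 CPM (-0.44 ± 0.07). The doxycycline call was lost without either library grown without it (-0.41 and -0.46) or doxycycline replicate 1 (-0.41). In the unpaired fit with all libraries Rarg was not called in the other comparisons with a vehicle. With the replicate block it was called after deletion at 2 weeks (0.34). With single libraries left out, it was called after deletion at 48 hours without ethanol replicate 2 (-0.77). In 1027B it was 58.6 and 64.2 CPM in vehicle, 63.3 and 64.9 CPM with trametinib and 53.3 and 51.7 CPM with MRTX1133. In 3154 it ranged from 35.5 to 104 CPM over 12 libraries, RARG in H358 from 169 to 213 CPM, and in the H1651 trametinib experiment from 61.4 to 66.2 CPM.

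**Figure D3:**
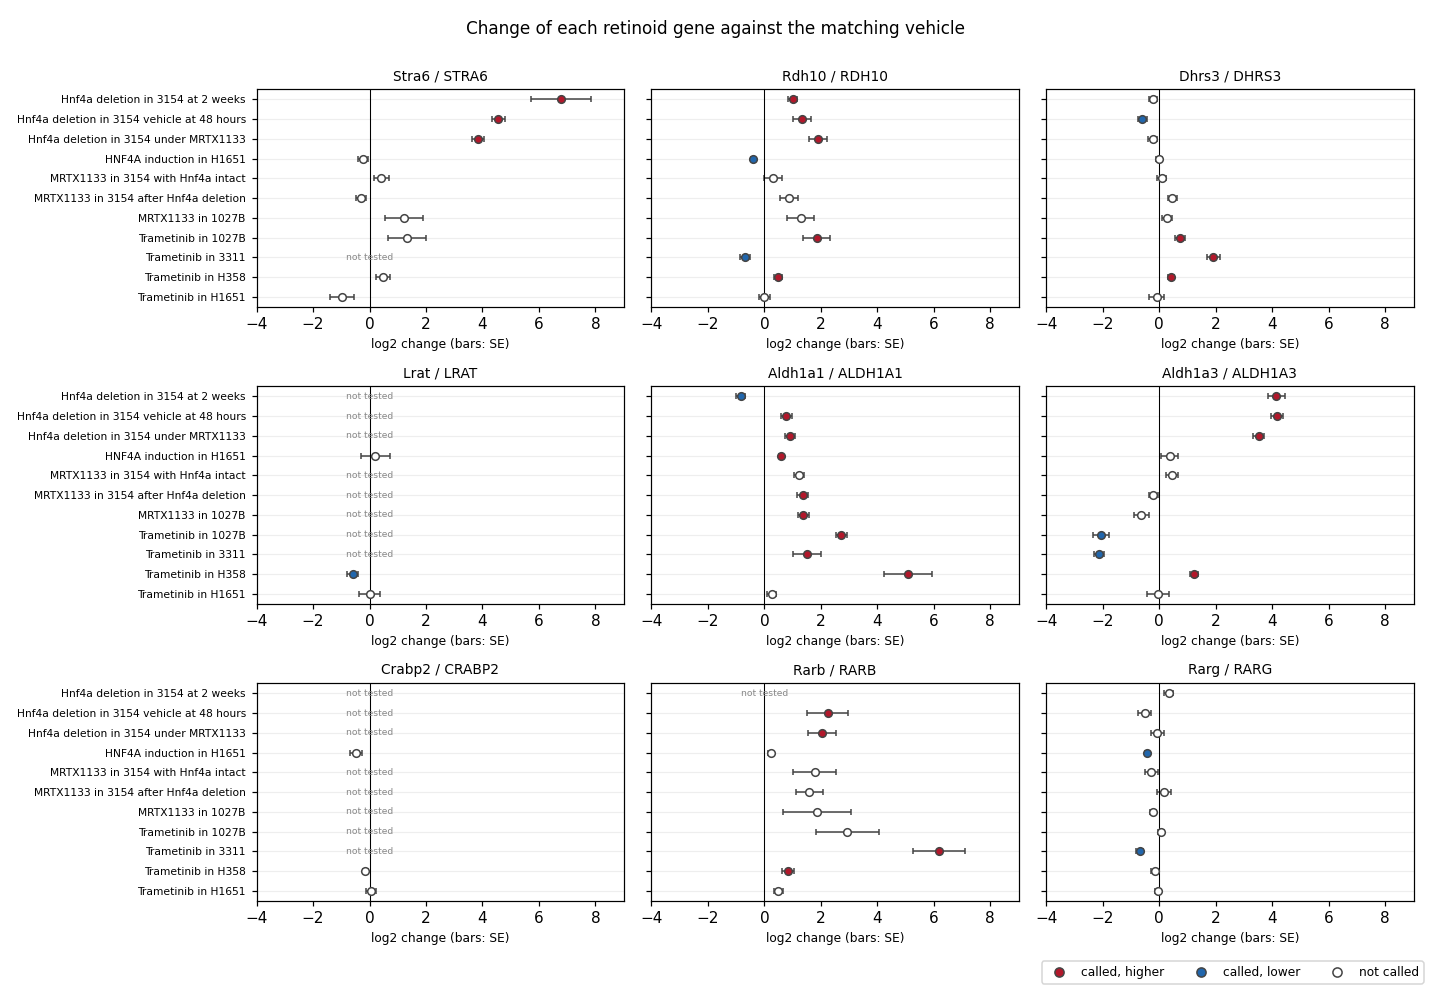
Log2 change of each retinoid gene (x axis) in 11 comparisons with a matching vehicle or control (y axis), with SE bars. Red points are called and higher, blue points called and lower, and white points not called. Stra6 and Aldh1a3 lie far right in the 3 deletion comparisons, and Aldh1a3 lies left for trametinib in both mouse cultures and right in H358.

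Counted together, 4 of the 6 tested genes were called after Hnf4a deletion at 2 weeks, where 9.81% of all 14492 genes were called. The figures were 6 of 7 at 48 hours in vehicle (31.0% of all genes) and 5 of 7 under MRTX1133 (27.7%). With doxycycline 3 of 9 were called (1.42%). Trametinib gave 6 of 6 in 3311 (39.0%), 4 of 7 in 1027B (26.7%; 6 of 7 with the block), 6 of 9 in H358 (46.8%) and 0 of 9 in H1651. MRTX1133 gave 1 of 7 in 1027B (6.27%; 4 of 7 with the block), 0 of 7 in 3154 with Hnf4a intact (0.349%) and 1 of 7 after deletion (4.64%). The last 2 shares rest on 54 and 717 called genes, which became 0 to 309 and 0 to 23 when single libraries were left out. In H1651 trametinib called 0 of 18277 genes in edgeR, with 597 at an unadjusted p below 0.05 and 44 called by DESeq2. With the replicate block 1881 genes were called there, among them STRA6, RARB and ALDH1A1. The counts also hold genes that passed the count filter through the group in which they were high. These are Stra6 at 2 weeks, Rarb at 48 hours and in 3311, Rarb with the block in 1027B, and ALDH1A1 in H358. The genes were chosen from such contrasts, so nothing is read from these counts. The 1027B comparisons share their vehicle libraries, and the 3154 comparisons at 48 hours share groups.

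Some comparisons did not enter the choice of genes themselves, but they are differences between changes that did. Their p values for the retinoid genes are therefore a description and not an independent test. This holds here, for the interaction, and for the differences between mouse cultures and between human lines below. The 2 inhibitors were set against each other in 1027B at 10 nM trametinib and 20 nM MRTX1133, doses that are not matched. Aldh1a1 was lower with MRTX1133 by a log2 difference of -1.35 ± 0.19 (95% interval -1.81 to -0.90; edgeR adjusted p = 0.0819). Aldh1a3 differed by 1.44 ± 0.28 (interval 0.77 to 2.12; adjusted p = 0.116) and Rdh10 by -0.56 ± 0.47 (interval -1.68 to 0.55; adjusted p = 0.614). None of the 7 tested genes was called, as was none of all 14555 genes (0%; 2357 at an unadjusted p below 0.05; 712 called by DESeq2, 2 of them retinoid genes). The replicate numbers deviate together in 1027B. With them as a block, 2050 genes were called, among them Aldh1a1 (-1.35, adjusted p = 0.0017), Aldh1a3 (1.44, adjusted p = 0.0025) and Rdh10 (-0.60, adjusted p = 0.0034). In both replicates Aldh1a1 was higher and Aldh1a3 lower with trametinib. Stra6 differed by -0.11 ± 0.65 (interval -1.65 to 1.43), too wide to tell whether the inhibitors act alike.

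The interaction asked whether MRTX1133 acted differently in 3154 once Hnf4a was deleted. No difference was detected for the 7 tested genes, nor for any of 15458 genes in edgeR (0%; 1150 at an unadjusted p below 0.05; 36 by DESeq2). The interaction of Aldh1a1 was 0.13 ± 0.26 (95% interval -0.48 to 0.74; adjusted p = 0.973). That of Rdh10 was 0.57 ± 0.44 (interval -0.44 to 1.58; adjusted p = 0.882), of Stra6 -0.72 ± 0.32 (interval -1.44 to 0.01; adjusted p = 0.683) and of Aldh1a3 -0.65 ± 0.27 (interval -1.28 to -0.02; adjusted p = 0.651). The intervals of Rdh10, Stra6, Aldh1a3, Rarg (-0.30 to 1.21) and Rarb (-2.33 to 1.96) reached beyond a log2 difference of 1, so differences of that size were not resolved for these 5 genes.

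The trametinib responses of the 2 mouse cultures differed for 3 of 7 tested genes, where 12.3% of 14632 genes were called. The change in 3311 minus that in 1027B was -2.55 ± 0.49 for Rdh10 (edgeR adjusted p = 0.0149), -0.78 ± 0.17 for Rarg (adjusted p = 0.0224) and 1.18 ± 0.32 for Dhrs3 (adjusted p = 0.0465). Aldh1a3 differed by -0.08 ± 0.31 (interval -0.79 to 0.63). Doses (50 and 10 nM), medium and culture cannot be told apart. The summed lung alveolar markers went from 4713 to 5387 CPM down to 800 to 871 CPM in 3311 and from 6901 to 10902 CPM down to 2643 to 3191 CPM in 1027B. Sftpb made up most of each vehicle sum, and the markers did not move together. In 1027B Sftpc went up from 26.8 and 105 CPM to 1137 and 978 CPM, and Nkx2-1 from 312 and 316 CPM to 413 and 431 CPM. Summed leukocyte markers went from 9.55 to 15.7 CPM up to 21.8 to 28.6 CPM in 3311, mostly Csf1r, with Ptprc at 0. Above 1 CPM were 2 leukocyte markers in each vehicle library, and 2 and 1 with trametinib, so the rise was not shared by all of them. The part of either in these changes was not tested. All 3 calls rest on the full set of libraries, as Rdh10 was lost without 3311 vehicle replicate 1 (-2.52) or trametinib replicate 1 (-2.43), Rarg without 5 of the 8 libraries (-0.79 to -0.70), and Dhrs3 without 6 of the 8 (0.88 to 1.27). Aldh1a1 was not called (-1.22 ± 0.65; adjusted p = 0.245), but it was called with the replicate block (-1.44) and without 3311 trametinib replicate 2 (-2.31).

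Between the human lines at the same 20 nM dose, the change in H1651 minus that in H358 was called for none of the 8 genes other than ALDH1A1, where 19.3% of 21188 genes were called. ALDH1A1 had 1 count in the H358 vehicle libraries and passed the count filter through the libraries in which it was high. Its fitted difference of -4.86 is therefore a description, with no p value. ALDH1A3 differed by -1.30 ± 0.41 (interval -2.23 to -0.37; edgeR adjusted p = 0.0582) and STRA6 by -1.48 ± 0.55 (interval -2.73 to -0.24; adjusted p = 0.0947). ALDH1A3 was called by DESeq2 (-1.30). Both were called when single libraries were left out, ALDH1A3 without H1651 vehicle replicate 1 (-1.65) or trametinib replicate 2 (-1.77), and STRA6 without H1651 vehicle replicate 1 (-1.87) or H358 trametinib replicate 2 (-1.84). So were DHRS3 without H1651 vehicle replicate 2 (-0.83) and RDH10 without H1651 trametinib replicate 2 (-0.82). Fibroblast markers rose with trametinib in H358 from a sum of 41.2 to 50.0 CPM to one of 246 to 349 CPM, led by LUM and COL1A1, with COL1A2 at most 0.41 CPM. Summed epithelial markers went from 5680 to 5964 CPM down to 4073 to 4319 CPM in H358. Lung alveolar ones went from 126 to 140 CPM up to 192 to 203 CPM, and endothelial ones from 13.9 to 15.6 CPM up to 28.3 to 28.5 CPM. The part of these markers in the H358 changes was not tested.

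Levels of different genes were compared per kilobase of exon in the mouse cultures. In 1027B with vehicle the mean order was Aldh1a1 (29.1 CPM per kb), Dhrs3 (17.4), Rdh10 (15.6), Rarg (14.4), Aldh1a3 (2.97) and Stra6 (2.94), with Crabp2 and Rarb below 0.1. Dhrs3, Rdh10 and Rarg overlapped between replicates, as did Aldh1a3 and Stra6. In 3311 with vehicle Rarg came first (30.2 CPM per kb), ahead of Aldh1a3 (12.7), Aldh1a1 (10.9), Rdh10 (6.42) and Dhrs3 (3.96). Aldh1a1 thus ranked above Aldh1a3 in 1027B, while the replicates of these enzymes overlapped in 3311. In 3154 at 48 hours with vehicle, Aldh1a3 was 0.451 CPM per kb with ethanol and 8.12 with 4OHT, against 20.6 and 35.3 for Aldh1a1.

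Other genes of the pathway, from a list of 66 names, were called mostly as lower when Hnf4a was deleted, though most were not called. At 2 weeks 9 of 31 tested genes fell, none rose and 22 were not called, where 9.81% of all genes were called, 584 of those 1421 higher. The median log2 change of the 31 was -0.42 against 0.02 for all genes. Ttr, the plasma carrier transthyretin, fell from 348 and 843 CPM to 9.13 and 14.8 CPM (-5.64 ± 0.53; edgeR adjusted p = 0.00795). Rbp2, a retinol-binding protein of the intestine, fell from 15.0 and 29.6 CPM to 1.71 and 1.69 CPM (-3.71 ± 0.39; adjusted p = 0.0102). Adh1, an alcohol dehydrogenase, fell from 3.07 and 18.5 CPM to 0.0985 and 0.375 CPM (-5.51 ± 1.11), a call lost without either 4OHT library. It is 1 of the 9 that fell, but it passed the count filter through the ethanol libraries, so nothing is read from its call. The number called was 4 without 4OHT replicate 2 and 16 without ethanol replicate 1. Leukocyte markers summed to 18.6 to 44.7 CPM with ethanol and 10.1 to 13.5 CPM with 4OHT. Csf1r alone was lower with 4OHT (13.2 and 38.1 against 3.45 and 5.14 CPM), Cd68 was not (5.11 and 6.24 against 6.30 and 7.76 CPM), and Ptprc stayed below 0.4 CPM. Their part was not tested.

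The 48-hour libraries gave 8 called genes of 32 in vehicle, 7 of them lower, and 11 of 32 under MRTX1133, 10 of them lower. These shares lay near those over all genes, 31.0% and 27.7%. Leaving out single libraries gave 6 to 12 called genes in vehicle and 6 to 9 under MRTX1133. Rbp2 (-4.24 ± 1.04) and Ttr (-3.17 ± 0.32) fell in vehicle, with edgeR adjusted p values of 0.0174 and 0.000568. Under MRTX1133 the falls were -3.39 ± 0.95 and -4.18 ± 0.34. Both calls of Rbp2 were lost without either 4OHT library of the comparison, and the call under MRTX1133 also without ethanol replicate 2 (-2.01). Adh7, a retinol-oxidising alcohol dehydrogenase, was the only gene that rose, from 12.7 and 16.2 CPM to 36.2 and 39.9 CPM in vehicle (1.40 ± 0.18; adjusted p = 0.00157). At 2 weeks it stood at 41.5 and 41.5 CPM with ethanol and 22.2 and 12.03 CPM with 4OHT, without a call. With doxycycline in H1651, 3 of 43 genes were called higher and none lower, where 1.42% of all genes were called. RBP2 is 1 of the 3 and passed the count filter only through the doxycycline libraries, which leaves 2 genes. RBP4 rose from 9.15 and 9.51 CPM to 15.8 and 19.6 CPM (0.92 ± 0.14; adjusted p = 0.0337) and the retinoid-responsive RARRES1 from 278 and 304 CPM to 451 and 410 CPM (0.56 ± 0.08; adjusted p = 0.0265), the latter lost without replicate 1 grown without doxycycline (0.50). RBP2 went from 0 counts to 46 counts over both libraries, at least 16.1-fold higher against a floor of 3 counts over the group. Fibroblast markers (8 listed, 5 to 6 above 1 CPM) summed to 664 to 759 CPM without and 414 to 457 CPM with doxycycline, and epithelial markers to 4506 to 4513 CPM and 5837 to 6313 CPM. The part of either in the doxycycline changes was not tested.

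**Figure D4:**
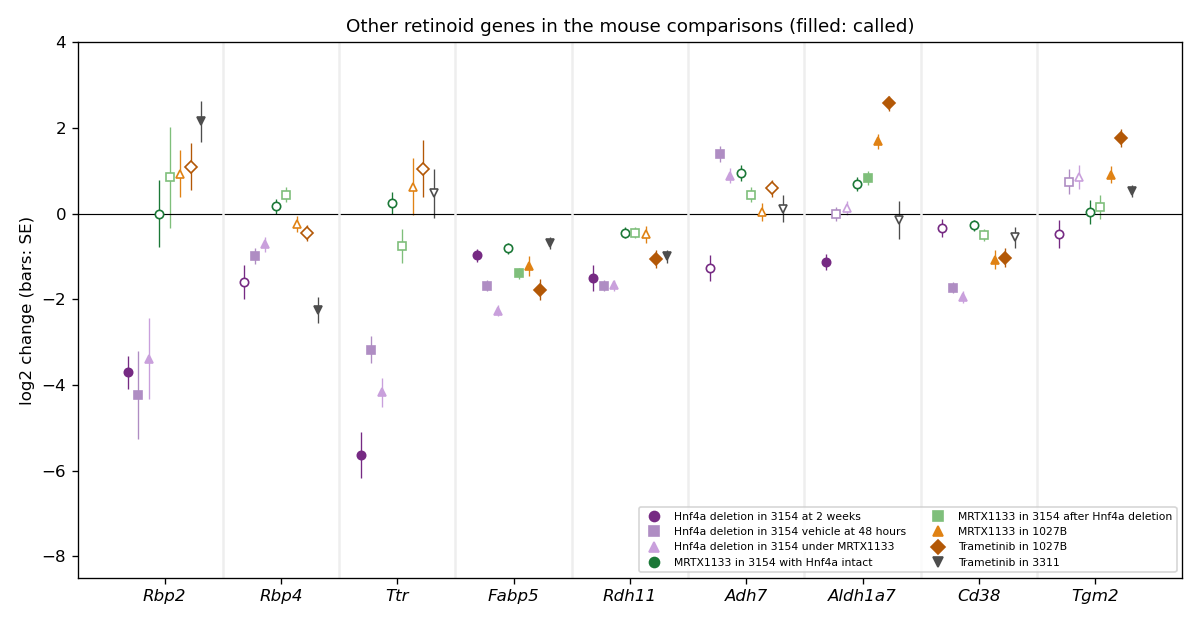
Log2 change (y axis, SE bars) of 9 other retinoid genes, chosen after their values were seen, in the 8 mouse comparisons with a vehicle or control (colours and symbols). Filled symbols are called. Rbp2 and Ttr lie below 0 in the 3 deletion comparisons, and Aldh1a7 and Tgm2 above 0 with trametinib in 1027B.

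With trametinib in 3311, 1027B and H358, other pathway genes were called in both directions. Trametinib called 19 of 43 genes in 3311 (13 higher), where 39.0% of all genes were called. It called 12 of 32 in 1027B (7 higher; 26.7% of all genes), 20 of 36 in H358 (12 higher; 46.8%) and 0 of 44 in H1651 (0%; 16 of 44 with a replicate block). Leaving out single libraries of 1027B gave 4 to 8 called genes. In 3311 Rbp4 fell from 920 and 821 CPM to 125 and 241 CPM (-2.25 ± 0.30; edgeR adjusted p = 0.00219), and Rbp2 (2.16 ± 0.48; not called without vehicle replicate 1) and the retinoic acid-responsive Hoxd4 (2.06 ± 0.25) rose. In 1027B Aldh1a7 rose from 68.2 and 64.2 CPM to 465 and 324 CPM (2.58 ± 0.18; adjusted p = 0.000642) and Tgm2, a classical retinoic acid target, from 167 and 121 CPM to 555 and 421 CPM (1.76 ± 0.21; adjusted p = 0.00228). All 4 tested retinoic acid-responsive targets were called in 1027B with trametinib, 2 higher and 2 lower. Those that fell were Cd38 (-1.03 ± 0.22) and Hic1 (-2.30 ± 0.70), the latter at most 1.73 CPM and not called by DESeq2, with other scaling factors or without a count filter. Cyp26b1, which degrades retinoic acid, rose by 1.35 ± 0.35, a call lost without either vehicle library or trametinib replicate 1. Fabp5, a fatty-acid and retinoic acid carrier, fell from 895 and 1259 CPM to 276 and 354 CPM (-1.77 ± 0.24). With MRTX1133 in 1027B 4 of 32 genes rose and 2 fell (6.27% of all genes were called), with Aldh1a7 at 1.69 ± 0.17, Tgm2 at 0.91 ± 0.20, Cd38 at -1.08 ± 0.22 and Fabp5 at -1.22 ± 0.23. Without any single library of this comparison 1 or 2 genes were called, and of these 4 genes Aldh1a7 alone kept its call in each case. With only the 2 groups in the fit 2 were called, and with the replicate block 12. Summed lung alveolar markers were 3396 to 5049 CPM with MRTX1133 against 6901 to 10902 CPM in vehicle, and their part was not tested. Sftpb made up most of this vehicle sum, so it does not describe each marker. The 2 inhibitors share the vehicle of 1027B.

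In H358 5 of 9 tested retinoic acid-responsive targets were called, 3 higher and 2 lower, where 46.8% of all genes were called. RARRES1 rose from 0.829 and 0.567 CPM to 3.46 and 3.61 CPM (2.32 ± 0.29; edgeR adjusted p = 0.000415), and TGM2 fell from 477 and 224 CPM to 38.3 and 45.5 CPM (-3.07 ± 0.32; adjusted p = 0.000178). Of the enzymes that degrade retinoic acid, CYP26A1 rose from 0.363 and 0.985 CPM to 3.502 and 2.36 CPM (2.16 ± 0.44; adjusted p = 0.00452) and CYP26B1 fell from 10.6 and 9.43 CPM to 3.78 and 4.24 CPM (-1.33 ± 0.18). Tgm2 thus rose in 1027B and fell in H358. The log2 change of Tgm2 in 3311 minus that in 1027B was -1.25 ± 0.26 (adjusted p = 0.0200), a call lost without 3 of the 8 libraries. In 3154, MRTX1133 called 0 of 32 genes with Hnf4a intact and 2 of 32 after deletion, Aldh1a7 (0.83 ± 0.16) and Fabp5 (-1.40 ± 0.13), of which 0 or 1 was called when a single library was left out. With only the 2 groups compared in the fit, 15 of 32 were called after deletion. With MRTX1133 in 3154 summed lung alveolar markers went from 6801 to 9018 CPM up to 11125 to 13926 CPM with Hnf4a intact. After deletion they went from 8259 to 9437 CPM up to 12874 to 17118 CPM, and their part was not tested.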

How the data were processed

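Raw read counts per gene were deposited by the authors as 7 tables, with 16553 to 26245 genes each and no normalization. Per the submitters' processing notes, cutadapt 3.5, STAR 2.7.6a and featureCounts 1.6.3 were used, with builds mm10, mm39 and hg38. Which build belongs to which table, the annotation and the filter before deposit are not given in the sources used here. Columns of the 3311 table name no culture and were assigned from the table's name.

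Each table was fitted alone in R 4.3.3 with edgeR 4.0.16 (filterByExpr, TMM, quasi-likelihood F-test, Benjamini-Hochberg adjustment over all tested genes, limit 0.05). SE is the absolute log2 change fitted without edgeR's prior count, divided by the square root of F. The log2 changes printed include the prior count, so at low counts the 2 rest on different estimates. Differences between tables were fitted on joined tables. The 9 genes, the pathway list and the tests were chosen with earlier results of these data known. The naming rule took all 9 genes, Hnf4a, the 5 genes most like Stra6 and, per comparison, up to 3 called pathway genes each way with the largest change and at least 1 CPM; others were named after their values were seen, and some items are not reported here. Replicates deviated together in 1027B (r = 0.243, 0.372 and 0.414 over its 3 pairs of groups), so blocked values are given there. The other tables had a single pair of groups (r = 0.126 to 0.623, highest in H1651 with trametinib and there above 1027B). For 3154 at 48 hours r ran from -0.251 to 0.549. The blocked values of these tables stand mostly with the alternatives. Alternatives were DESeq2 1.42.0, other scalings and filters, only the groups compared, a replicate block, and leaving out each library. Groups of 2 are too small for an exact permutation test at 0.05. Count-ratio intervals and floors hold counting error and nothing else. Scripts were checked on simulated data. Exon lengths came from GENCODE M21 (GRCm38).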

Additional observations from a re-analysis of the deposited data

Results flagged for a closer look

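In 3 results the test of the difference in trametinib response between the mouse cultures gave a call. Both changes entered the choice of genes, so these calls are a description. Each was lost when some single libraries were left out, and dose, medium and culture cannot be told apart. The change in 3311 minus that in 1027B was -2.55 for Rdh10, -0.78 for Rarg and 1.18 for Dhrs3. Rdh10 was called in opposite directions in these cultures. Between the human lines the fitted change of ALDH1A1 differed by -4.86 (H1651 minus H358), a value picked out by the same test. That value rests on 1 count in the H358 vehicle libraries, and ALDH1A1 passed the count filter only through the libraries in which it was higher, so its test supports nothing here.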

How the results depend on the processing

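No called change of the 9 genes reversed its direction under any alternative run. With DESeq2 Aldh1a1 lost its call with trametinib in 3311, and with only 2 groups Dhrs3 lost it at 48 hours in vehicle. RDH10 with doxycycline lost its call with RLE factors or 10 counts in each library, and LRAT in H358 with upper-quartile factors. The number of genes called out of the 9 had larger moves as follows. With DESeq2 it was 2 for MRTX1133 against trametinib in 1027B, 1 for MRTX1133 in 3154 with Hnf4a intact, 2 for the difference between H1651 and H358, and 1 for that between the deletion at 2 weeks and at 48 hours, each against 0, 0, 1 and 0. With the replicate block it was 5 (doxycycline), 4 (MRTX1133 in 1027B), 3 (MRTX1133 against trametinib), 3 (trametinib in H1651), 1 (MRTX1133, Hnf4a intact), 5 (H1651 minus H358) and 2 (2 weeks minus 48 hours). In comparisons beyond 1027B alone, whether the numbers pair is not settled. The r of a single pair of groups was 0.126 to 0.623, and signs were mixed for 3154 at 48 hours. Genes called there with the block and not without it were Rarg at 2 weeks (0.34), RARB (0.22) and CRABP2 (-0.48) with doxycycline, STRA6 in H358 (0.44), STRA6 (-0.98), RARB (0.50) and ALDH1A1 (0.26) with trametinib in H1651, Aldh1a1 with MRTX1133 and Hnf4a intact (1.22), Aldh1a1 for 3311 minus 1027B (-1.44), RDH10 (-0.55), STRA6 (-1.46), DHRS3 (-0.50) and ALDH1A3 (-1.31) for H1651 minus H358, and Stra6 (2.40) and Aldh1a1 (-1.62) for 2 weeks minus 48 hours. Without a count filter MRTX1133 with Hnf4a intact gave 1, and with only its 2 groups MRTX1133 after deletion gave 4. At least 10 counts in every library left 0 for H1651 minus H358, since ALDH1A1 in H358 then is not tested. When 1 library was left out, and the lone one assumed to vary like the others, the count ran from 1 to 4 (deletion, 2 weeks), 2 to 6 (48 hours, vehicle), 3 to 4 (under MRTX1133), 1 to 2 (doxycycline), 4 to 5 (trametinib, 3311), 2 to 3 (1027B), 2 to 7 (H358) and 0 to 1 (H1651). It ran from 0 to 1 for MRTX1133 in 1027B and with Hnf4a intact, was 0 after deletion, for MRTX1133 against trametinib and for the interaction, and ran from 1 to 3 (H1651 minus H358), 0 to 3 (3311 minus 1027B) and 0 to 1 (2 weeks minus 48 hours). Over all genes the block moved the calls from 1421 to 4563 (deletion, 2 weeks), 247 to 3048 (doxycycline), 3880 to 6540 and 913 to 3515 (trametinib and MRTX1133 in 1027B), 0 to 1881 (trametinib, H1651), 4087 to 8472 (H1651 minus H358) and 1799 to 2759 (3311 minus 1027B). The cause was not tested. For the 40 called changes of the 9 genes, 356 of 426 values under the alternatives kept the call and 70 lost it. For the 78 changes that were not called, 44 of 903 values gained a call and 38 changed sign. For the called pathway genes 482 of 564 values kept the call. With 1 library left out, calls over all genes ran from 395 to 2790 (deletion, 2 weeks), 1668 to 5964 (48 hours, vehicle), 1745 to 2805 (under MRTX1133), 232 to 412 (doxycycline), 138 to 349 (MRTX1133 in 1027B) and 1336 to 2754 (trametinib in 1027B), against 1421, 4795, 4279, 247, 913 and 3880. Depth limits Crabp2 and Rarb in mouse and ALDH1A1 in H358.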
